A study of Homo sapiens with 21 samples.

Results

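T47D cells at 250 nM THZ1 were compared with T47D cells at 50 nM THZ1, on 4 of the 21 arrays of the series. T47D is an established luminal breast cancer line, labelled as positive for the oestrogen and progesterone receptors, and THZ1 is a covalent inhibitor of the kinase CDK7. Each dose had 2 arrays, and 2 further T47D arrays with the solvent DMSO gave the untreated level. All T47D groups were the same unmodified line, grown in serum-containing medium and treated for 6 h with DMSO, 50 nM THZ1 or 250 nM THZ1. The genes of interest were those that needed the higher dose, those already lost at 50 nM, and those that changed direction between the doses. Of 18132 genes with a probe set on the array, 12644 were bright enough in at least 1 group to be tested, and every one of these was classed by its own values. ZR-75-1 (labelled oestrogen receptor positive) and MDA-MB-468 (labelled triple negative) had the same 3 doses with 2 arrays each, and BT-549 (triple negative) had 1 array a dose. The source field of the T47D and ZR-75-1 arrays names MDA-MB-468, whereas their titles and cell line field name T47D and ZR-75-1, which were followed here. The labels do not say whether the 2 arrays of a group came from separate cultures, so the p-values measure only the spread between arrays, which may be technical.

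CDK7, with cyclin H and MAT1, forms the kinase module of TFIIH. It phosphorylates the tail of RNA polymerase II as transcription starts, and it also activates the cell cycle kinases. THZ1 binds a cysteine outside the kinase domain of CDK7, and it is known to reach CDK12 and CDK13 as well, which act on elongating polymerase and on the processing of long genes. When transcription is inhibited for a few hours, transcripts with short half-lives, such as those of immediate early genes and of many transcription factors, are known to fall first, while long-lived transcripts such as those of ribosomal proteins persist. T47D depends on oestrogen receptor signalling with its partners FOXA1 and GATA3.

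The values are array intensities. The 75th percentile of intensity over probe sets was 225 to 228 with DMSO, 211 to 213 at 50 nM and 178 to 186.0 at 250 nM, while the mean intensity stayed between 329.9 and 341. The poly(A) control transcripts rose from log2 10.64 and 10.72 with DMSO to 10.90 and 10.94 at 50 nM and to 11.25 and 11.32 at 250 nM, so scaling to them lowers every gene at the higher dose. The luminal markers ESR1, PGR, GATA3, FOXA1, KRT8, KRT18, KRT19, SPDEF, XBP1 and TFF1 were above background on all 6 T47D arrays. Of the immune and stromal markers, PTPRC (leukocytes) and COL3A1 (fibroblasts) were above background on none of them and CD3D (T cells) on 2, whereas CD68, COL1A1, PDGFRB, PECAM1 and VWF were dim but above background on all 6, at intensities of 43.1 to 84.2. Of the basal and mesenchymal markers, KRT5, KRT14, EGFR, VIM and SOX10 were above background on all 6, and ZEB1 on some. EGFR read 127 to 200, SOX10 72.5 to 104, and KRT5, KRT14 and VIM 29.9 to 73.8. The summed intensity of the immune and stromal markers was 758 to 814 with DMSO, 782 to 828 at 50 nM and 855 to 898 at 250 nM, with 1 of 11 tested members lower and 1 higher; its part in the results was not tested. Arrays of the same dose correlated at 0.9953 to 0.9962 (Pearson's r of log2 values across genes), and 7 to 14 genes lay at least 2-fold apart between them.

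Raising the dose from 50 to 250 nM mostly lowered transcripts. With limma and Benjamini-Hochberg adjustment at 0.05, 3439 genes were called lower (27.2% of those tested) and 579 higher (4.58%), and the median change over all genes was -0.05 on the log2 scale. At least 2-fold, 748 genes were lower (5.92%) and 1 was higher. At the first step, from DMSO to 50 nM, 956 genes were lower (7.56%) and 252 higher (1.99%), with 75 at least 2-fold lower (0.593%) and 9 at least 2-fold higher. Of the 1194 genes that were at least 2-fold lower at 250 nM than with DMSO, the median gene had made 23.9% of its log2 change by 50 nM; 620 had made under 25% of it and 28 over 75%. The split between lower and higher calls depended on the scaling. It was 3439 to 579 with the values as deposited, 2777 to 1047 with each array centred on its median, 2397 to 2809 after quantile normalization, and 8508 to 8 when scaled to the poly(A) control transcripts, with median changes of -0.05, 0.03, 0.08 and -0.41. The count of higher genes also rested on single arrays: it was 358 without array 1 and 216 without array 2 at 250 nM, and 277 without array 1 at 50 nM. In bulk RNA, fewer cells with a transcript and less of it per cell cannot be told apart.

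**Figure D1:**
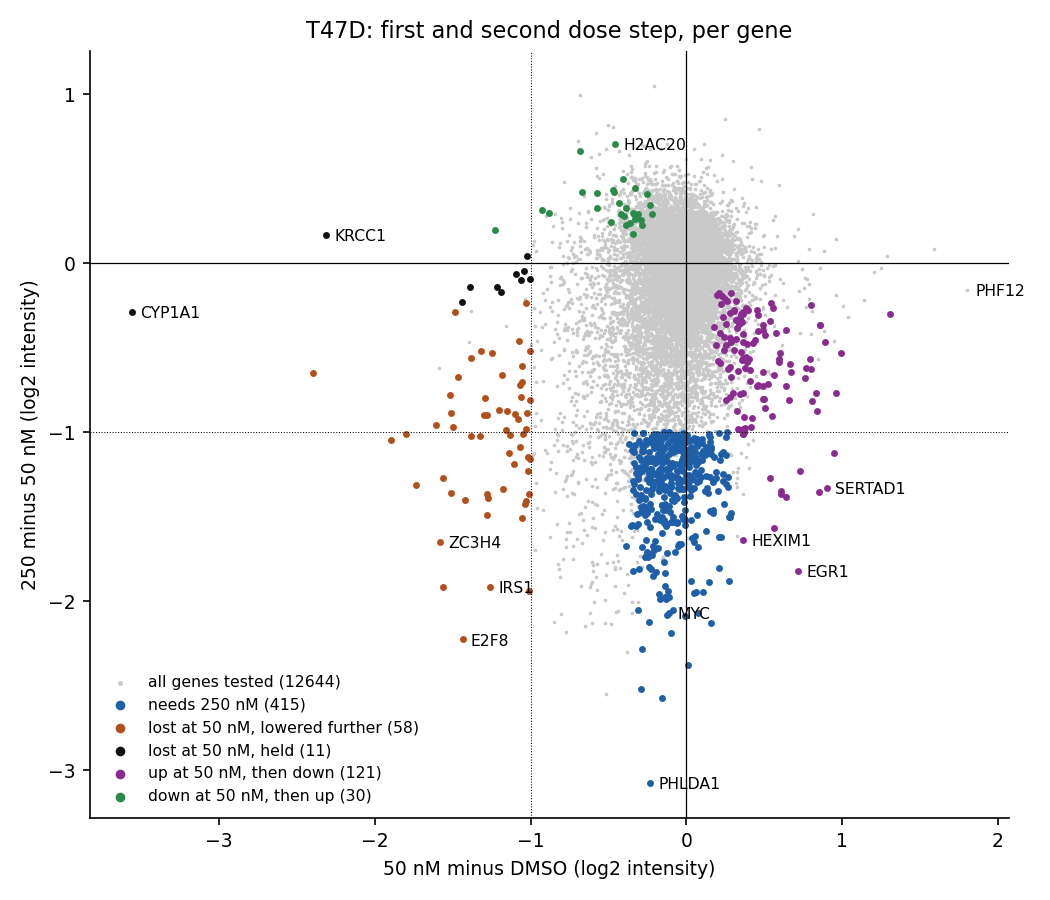
Each point is 1 of the 12644 tested genes in T47D, placed by its log2 change from DMSO to 50 nM (horizontal axis) and from 50 to 250 nM (vertical axis), with dotted lines at a 2-fold fall. The 415 genes that needed 250 nM (blue) hang below the centre, those lost at 50 nM lie to the left (58 lowered further in orange, 11 held in black), and the turned genes lie at the lower right (121, purple) and upper left (30, green); both axes share the 50 nM arrays, with opposite sign.

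A gene was taken to need 250 nM if it was called at least 2-fold lower at 250 than at 50 nM while the 95% interval of its change from DMSO to 50 nM stayed within 1.5-fold of no change. This held for 415 genes, all of them lower, and for no gene in the higher direction. Their median change was -1.25 between the doses and -0.10 at the first step. These values chose the genes and are given as a description. Of the 748, 187 (18 of them in the class) had already been called lower at 50 nM and 13 (2 in the class) had been called higher, while 153 were not called at 50 nM but had intervals too wide or too far from 0 for the class.

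PHLDA1, a growth-factor-induced protein with a pleckstrin homology-like domain, had the steepest fall between the doses of the genes tested. Its intensities were 723 and 649 with DMSO, 573 and 596 at 50 nM, and 64.1 and 74.9 at 250 nM. Both arrays at 50 nM lay just under the DMSO arrays, and both arrays at 250 nM were far below all others. The log2 change between the doses was -3.08 ± 0.11 (SE), an 8.43-fold fall (limma adjusted p = 1.17e-10), against -0.23 from DMSO to 50 nM (adjusted p = 0.25). Its 3 other probe sets were also called lower between the doses, and 1 of them was called lower at 50 nM too. ZNF281, a zinc finger transcription factor, read 1313 and 1333 with DMSO, 1149 and 1228 at 50 nM, and 177 and 226 at 250 nM. The 50 nM arrays were close to DMSO and the 250 nM arrays fell 5.94-fold below them (adjusted p = 3.18e-09), as did both other probe sets. The promoters of these 2 genes of the class are given as RefSeq has them (GRCh38.p14, minus strand, 250 bases before to 50 after the start), PHLDA1 at chr12:76031727-76032026 and ZNF281 at chr1:200409987-200410286. Capitals mark matches on either strand to the TATA box (TATAAA), the CCAAT box, the GC box (GGGCGG), the core bound by ETS factors (CCGGAA), the cyclic AMP response element (TGACGTCA), the core of the dioxin response element (GCGTG) and the AP-1 element (TGACTCA); matches may overlap.
PHLDA1: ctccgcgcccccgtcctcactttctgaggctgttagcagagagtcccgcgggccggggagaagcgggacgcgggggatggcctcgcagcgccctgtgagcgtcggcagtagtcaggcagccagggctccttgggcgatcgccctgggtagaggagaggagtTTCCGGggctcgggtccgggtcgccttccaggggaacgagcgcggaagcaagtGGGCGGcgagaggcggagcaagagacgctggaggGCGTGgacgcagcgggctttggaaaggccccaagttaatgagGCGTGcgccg
ZNF281: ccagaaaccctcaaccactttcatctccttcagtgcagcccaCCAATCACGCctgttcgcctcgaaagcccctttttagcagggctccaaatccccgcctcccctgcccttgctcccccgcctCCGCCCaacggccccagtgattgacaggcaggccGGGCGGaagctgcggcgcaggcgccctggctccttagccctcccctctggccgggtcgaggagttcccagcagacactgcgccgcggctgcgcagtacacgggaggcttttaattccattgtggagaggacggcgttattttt
The PHLDA1 window held 1 GC box, 1 ETS core and 2 GCGTG matches, and the ZNF281 window held 1 CCAAT, 2 GC boxes and 1 GCGTG match; neither held TATAAA.

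Members of the MAPK feedback and immediate early lists needed 250 nM more often than all genes, by count and without a test. Of 20 tested MAPK feedback genes, 8 (40%) were in the class, and of 35 immediate early genes 11 (31.4%), beside 3.28% of all genes tested. MYC, the growth-promoting transcription factor, read 757 and 738 with DMSO, 716 and 671 at 50 nM, and 152 and 179 at 250 nM. It was held through 50 nM and fell 4.19-fold at 250 nM (adjusted p = 2.31e-10). DUSP4, a nuclear MAPK phosphatase, changed by -1.62 ± 0.07 on the log2 scale, and IER5, an immediate early gene, by -1.88 ± 0.09. AP-1's JUN did not belong to the class: it read 519 and 496 with DMSO, 265 and 299 at 50 nM, and 56.4 and 73.98 at 250 nM, so that it was lower at each step (adjusted p = 0.000585 from DMSO to 50 nM and 8.54e-09 between the doses).

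Regulators of RNA stability were also in the class. ZFP36L2, which binds AU-rich elements and promotes mRNA decay, read 1828 and 1905 with DMSO, 1865 and 1890 at 50 nM, and 334 and 392 at 250 nM. The DMSO and 50 nM arrays overlapped within a few percent, and the 250 nM arrays were 5.19-fold lower (adjusted p = 1.23e-11). Its relative ZFP36 read 783 and 825 with DMSO, 735 and 724 at 50 nM, and 169.8 and 247 at 250 nM, with a fall of 3.57-fold (adjusted p = 1.54e-07) between doses that had no overlap. ZFP36L1, a further member, fell less, 2.04-fold, and 1 of its 4 other probe sets was called with it.

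Further members of the class had steep falls as well. TRAF6, a ubiquitin ligase of Toll-like and interleukin-1 receptor signalling, read 132 and 137 with DMSO, 146 and 154 at 50 nM, and 30.7 and 38.5 at 250 nM. It was slightly above DMSO at 50 nM (log2 0.16, adjusted p = 0.584) and 4.37-fold lower at 250 nM. DNAJB1, an HSP40 co-chaperone, changed by -2.05 ± 0.12 between the doses and by -0.09 at the first. FBXO5, an inhibitor of the anaphase-promoting complex, changed by -1.98 ± 0.12 and -0.17 at the same steps, and PTGER4, a prostaglandin E2 receptor, by -2.05 ± 0.10 and -0.31. RNF111, a ubiquitin ligase of TGF-beta signalling, changed by -2.52 ± 0.13 and -0.29. SLC38A2, a neutral amino acid transporter, and ZNF217, a transcription factor often amplified in breast cancer, changed by -2.28 ± 0.07 and -2.19 ± 0.12, but the 2 other probe sets of each were not called.

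Of 39 luminal and oestrogen receptor genes 2 (5.13%) needed 250 nM, and of 9 anti-apoptotic genes 1, beside 3.28% of all genes. FOXA1, the pioneer factor of oestrogen receptor binding, read 4942 and 4368 with DMSO, 4464 and 4353 at 50 nM, and 1607 and 1774 at 250 nM. The 250 nM arrays were 2.61-fold below the 50 nM arrays (adjusted p = 4.96e-09), and the change from DMSO to 50 nM was not called. The anti-apoptotic MCL1 read 2490 and 2296 with DMSO, 2603 and 2600 at 50 nM, and 996 and 1049 at 250 nM, a 2.54-fold fall between the doses (adjusted p = 1.44e-08) after no call at 50 nM; 3 of its 5 other probe sets were called lower with it, and 1 was called lower at 50 nM, against the sign of the brightest. TFAP2C, an AP-2 factor of luminal cells, changed by -1.34 ± 0.09, and SOX9, a progenitor transcription factor, by -1.26 ± 0.08, with 50 nM changes of 0.03 and 0.12. TFAP2A had already moved at 50 nM (-0.70, adjusted p = 0.000151) and fell by a further 1.63 ± 0.09.

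**Figure D2:**
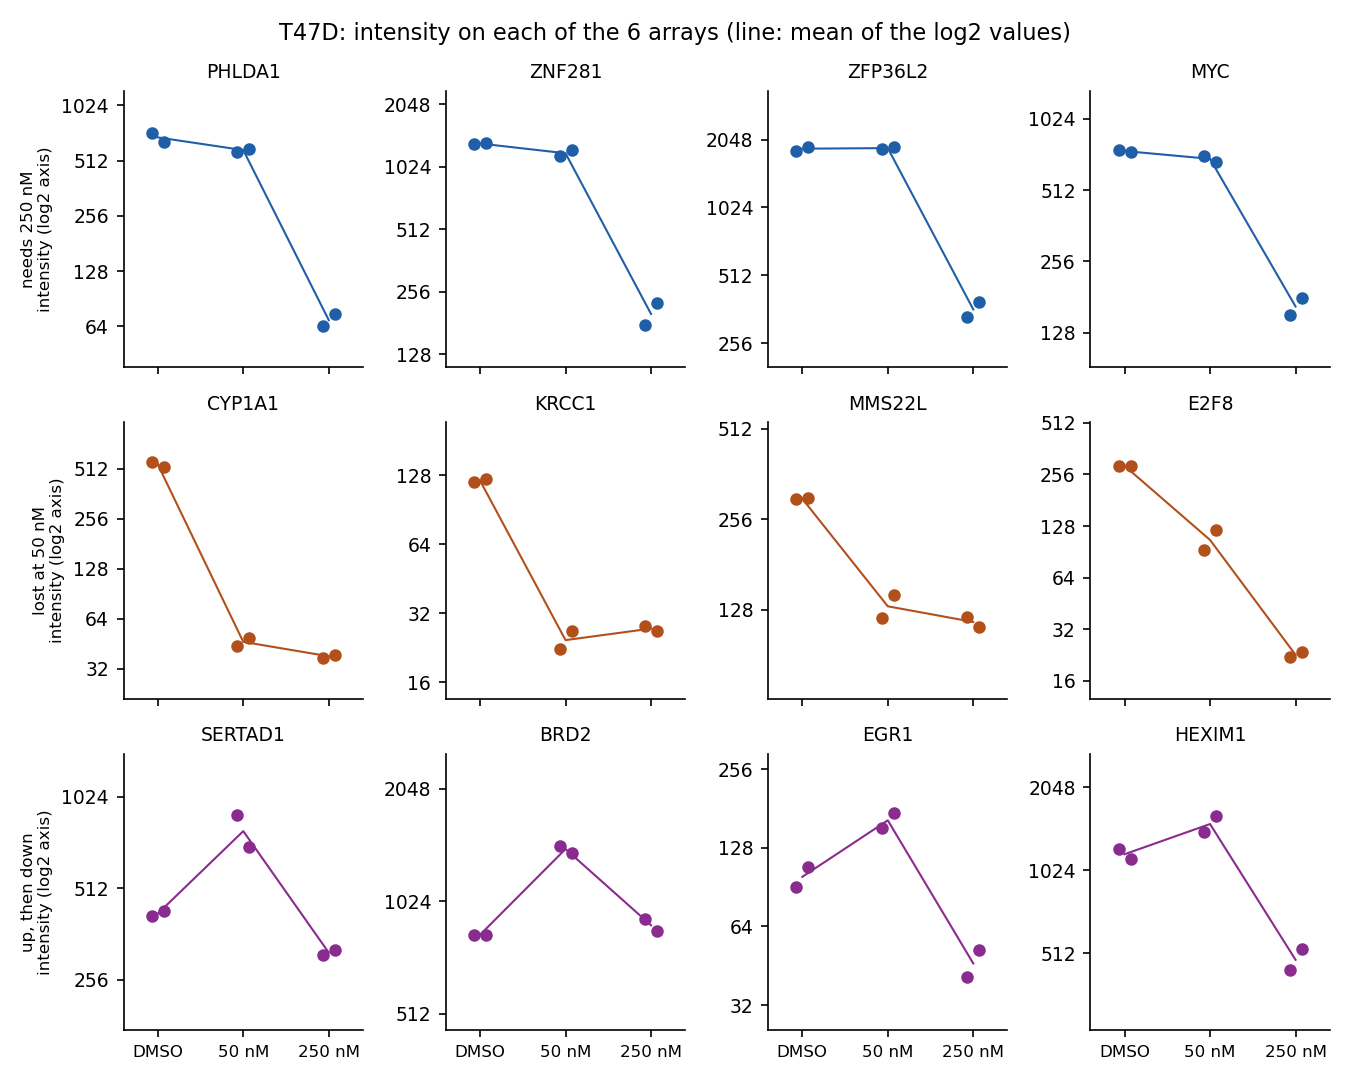
Intensity (log2 axis, a range of its own in each panel) of 12 genes on each of the 6 T47D arrays, as points, with a line through the mean of the log2 values at each dose. The genes of the top row (blue) stayed near their DMSO level at 50 nM and dropped at 250 nM, those of the middle row (orange) dropped at 50 nM, and those of the bottom row (purple) peaked at 50 nM.

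Other luminal genes and drug targets had smaller changes. Across the 39 luminal and oestrogen receptor genes, 14 were lower and 2 higher between the doses, with a median of -0.12 beside -0.05 for all genes. ESR1, the oestrogen receptor, read 928 and 884 with DMSO, 749.7 and 826 at 50 nM, and 651 and 743 at 250 nM, with a change of -0.18 ± 0.15 (adjusted p = 0.405). PGR, the progesterone receptor, changed by 0.11 ± 0.13 (adjusted p = 0.572). GATA3 changed by -0.46 ± 0.09 and CCND1 (cyclin D1) by -0.41 ± 0.06; both falls passed the test, were under 2-fold and followed no call at 50 nM. CDK7 itself read 831 and 829 with DMSO, 787 and 821 at 50 nM, and 459 and 545 at 250 nM, a 1.61-fold fall (adjusted p = 2.2e-06) with no call at 50 nM. CDK12 fell 1.72-fold (adjusted p = 8.07e-06).

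The genes already lost at 50 nM, called at least 2-fold lower there than with DMSO, numbered 75. Of these, 58 were called lower again at 250 nM, 11 held their 50 nM level (95% interval of the second step within 1.5-fold of no change), 1 was raised, and 5 met none of these. At 250 nM, 17 of the 75 (and 10 of the 415 that needed 250 nM) were not above background on either array, so a further fall could not be measured in full. The count of held genes was 6 without array 1 at 50 nM. Scaled to the poly(A) control transcripts, 12 genes were held, 1 of them among the 11, and 589 needed 250 nM, 172 of them among the 415.

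CYP1A1, the monooxygenase induced by the aryl hydrocarbon receptor, led the held genes. Its intensities were 566 and 527 with DMSO, 43.97 and 48.9 at 50 nM, and 37.2 and 38.7 at 250 nM. Nearly all of the measured loss had occurred at 50 nM, 11.8-fold (adjusted p = 3.29e-10), and the second step was -0.29 ± 0.13 (adjusted p = 0.115). CYP1A1 was still above background but not far from it (log2 4.82 on the 250 nM arrays), so a further fall could be measured only in part. Its other probe set fell at 50 nM as well. The promoter is shown as that of the gene with the largest loss at 50 nM (RefSeq, GRCh38.p14, chr15:74725479-74725778, minus strand; capitals mark the same motifs).
CYP1A1: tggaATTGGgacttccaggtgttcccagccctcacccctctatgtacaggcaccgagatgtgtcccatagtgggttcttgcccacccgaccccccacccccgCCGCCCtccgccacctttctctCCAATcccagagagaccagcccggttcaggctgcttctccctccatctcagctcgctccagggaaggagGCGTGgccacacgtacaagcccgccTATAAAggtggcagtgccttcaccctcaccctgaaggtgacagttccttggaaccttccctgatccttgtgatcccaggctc
It held 1 TATAAA, 2 CCAAT, 1 GC box and 1 match to GCGTG, the core recognised by that receptor, which 50% of all promoters held. CYP1B1, another target of the receptor, read 6017 and 5830 with DMSO, 2198 and 2044 at 50 nM, and 1732 and 1731 at 250 nM; it fell 2.79-fold at 50 nM and changed by -0.29 ± 0.06 in the second step (adjusted p = 0.000767). TIPARP, a target as well, needed the higher dose: it read 467 and 473 with DMSO, 490.4 and 501 at 50 nM, and 146 and 164 at 250 nM, without a fall at 50 nM and with a 3.21-fold fall at 250 nM (adjusted p = 1.19e-09), although its 1 other probe set was not called. AHR, the receptor, fell by 0.58 ± 0.13 between the doses, and 1 of its 2 other probe sets was called in the opposite direction.

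MMS22L, which acts with TONSL in the repair of stalled replication forks, read 299 and 299.9 with DMSO, 120.2 and 143 at 50 nM, and 121 and 112 at 250 nM. It lost 2.28-fold at 50 nM (adjusted p = 4.08e-06), and the 250 nM arrays overlapped those at 50 nM (adjusted p = 0.245). KRCC1 read 119 and 123 with DMSO, 22.3 and 26.7 at 50 nM, and 28.1 and 26.8 at 250 nM; its arrays at 50 and 250 nM were not above background, so a floor was reached at the first dose. PPP1R10, a nuclear targeting subunit of protein phosphatase 1 that acts in transcription termination, changed by -1.39 ± 0.20 and then by -0.14 ± 0.20. The single other probe set of MMS22L, KRCC1 and PPP1R10 fell at 50 nM in each case. TMTC2, ZC3H6, C3orf62 and ZNF518B were held at lower intensities, between 26.2 and 50.9 at both doses, which left little room above background for a further fall. Of the 11 held genes, 2 (KRCC1 included) were above background on neither 250 nM array and 1 on a single array. A further fall of these could not be measured in full.

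The genes lowered at both steps included regulators of transcription and growth. E2F8, an atypical E2F repressor, read 287 and 288 with DMSO, 92.9 and 121 at 50 nM, and 21.9 and 23.5 at 250 nM. It fell 2.71-fold at 50 nM and at least 3.75-fold more at 250 nM, where it was not above background (adjusted p = 2.59e-07). IRS1, the insulin receptor substrate, read 446 and 464 with DMSO, 185 and 194 at 50 nM, and 49.7 and 50.98 at 250 nM, with falls of 2.4-fold and 3.77-fold; each dose lay apart from the one before, and 1 of the 2 other probe sets was called at each step. ZC3H4, which restrains non-coding transcription, changed by -1.58 ± 0.12 at the first step and by -1.65 ± 0.12 at the second. Its 1 other probe set was called at the first step and was near 0 at the second. MOCS3, a sulfurtransferase of molybdenum cofactor synthesis and tRNA modification, changed by -1.56 ± 0.14 and -1.92 ± 0.14, and FANCF, of the Fanconi anaemia core complex, by -1.04 ± 0.10 and -1.42 ± 0.10. C21orf91 and TBC1D31 changed by -1.94 ± 0.09 and -1.51 ± 0.11 in the second step.

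SLC35B3, a Golgi transporter of the sulfate donor PAPS, was the 1 lost gene called higher again. It read 246 and 269.8 with DMSO, 107 and 114 at 50 nM, and 122 and 130.3 at 250 nM, so both 250 nM arrays lay above both 50 nM arrays while all 4 stayed far under DMSO. The rise was 0.20 ± 0.07 (adjusted p = 0.0491), and it was -0.17 when scaled to the poly(A) control transcripts. For SLC35B3 the call was also lost without any 1 of the 50 or 250 nM arrays (limma adjusted p from 0.0562 to 0.258) and with only the T47D arrays in the fit (0.157). In the opposite direction, 9 genes were at least 2-fold higher at 50 nM than with DMSO: PHF12, ANKRD36, NFATC1, RBM34, USP45, DMXL1, VEPH1, SSH1 and SOCS7, all of which were chosen after their values were seen. PHF12, a subunit of a SIN3 co-repressor complex, read 50.9 and 61.0 with DMSO, 212 and 178 at 50 nM, and 166 and 183 at 250 nM. The rise was 3.49-fold (adjusted p = 8.03e-07), and the second step was -0.16 ± 0.13 (adjusted p = 0.404). Of the 9, 6 held their level at 250 nM (3 without array 2 at 50 nM, and 0 when scaled to the poly(A) control transcripts) and NFATC1, a calcineurin-regulated transcription factor, was called lower (-0.30 ± 0.11, adjusted p = 0.0414), so that it also counts among the genes that turned down. All 9 stayed above DMSO at 250 nM. The other probe sets of PHF12, ANKRD36, NFATC1 and VEPH1 were not called at 50 nM, and 1 of 2 for DMXL1 and 2 of 3 for SSH1 were called in the opposite direction.

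Reversal between the doses was mostly a rise at 50 nM followed by a fall. By this rule 121 genes turned down, being called higher at 50 nM than with DMSO and lower at 250 than at 50 nM, and 30 turned up. Of the 121, 42 ended below DMSO by the same test (crossed), 9 were still above it, and no gene crossed in the other direction. The 50 nM arrays enter both steps with opposite sign, so an error of those arrays alone moves a gene into the turned class; the crossed class compares each dose with the DMSO arrays. Single arrays set much of the size of these classes. Without array 1 or 2 at 50 nM, 61 and 59 genes turned down and 16 and 18 crossed; without DMSO array 1 or 2, 55 and 56 turned down and 11 and 12 crossed. The 30 that turned up became 14 without array 1 at 50 nM, 15 and 17 without DMSO array 1 or 2, and 19 and 16 without 250 nM array 1 or 2. Centred on the array median, 80 turned down (73 of them among the 121) and 23 crossed (20 among the 42). Scaled to the poly(A) control transcripts, 62 turned down (33 among the 121) and 27 crossed (7 among the 42). After quantile normalization 139 turned down (82 among the 121) and 32 crossed downwards (14 among the 42), while 5 crossed upwards.

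SERTAD1, a CDK4-binding transcriptional co-regulator, crossed the DMSO level. It read 415 and 430.4 with DMSO, 890.5 and 701 at 50 nM, and 309 and 319.9 at 250 nM, and the 3 doses did not overlap. The rise was 1.87-fold (adjusted p = 5.89e-05), the fall 2.51-fold (adjusted p = 1.11e-07), and the level at 250 nM was 1.34-fold below DMSO (adjusted p = 0.00395). Its promoter is given because its reversal was among the largest of the genes that turned down, ranked by the smaller of the 2 steps (RefSeq, GRCh38.p14, chr19:40425943-40426242, minus strand, capitals mark the same motifs).
SERTAD1: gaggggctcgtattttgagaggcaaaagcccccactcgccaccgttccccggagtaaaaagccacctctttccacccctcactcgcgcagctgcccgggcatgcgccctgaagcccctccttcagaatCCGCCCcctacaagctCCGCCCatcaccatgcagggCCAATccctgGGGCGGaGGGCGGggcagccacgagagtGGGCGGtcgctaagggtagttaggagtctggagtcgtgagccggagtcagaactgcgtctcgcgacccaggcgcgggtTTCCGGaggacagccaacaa
It held 5 GC boxes, 1 CCAAT and 1 ETS core, with no TATAAA. EGR1, the immediate early zinc finger factor, read 90.7 and 108 with DMSO, 153 and 174 at 50 nM, and 40.9 and 52.1 at 250 nM. It rose 1.65-fold and then fell 3.53-fold, to 2.15-fold below DMSO (adjusted p = 5.39e-06); of its 5 other probe sets 1 was called with it at the first step and 2 at the second. RBM15, of the m6A methyltransferase complex, rose by 0.57 ± 0.11 and fell by 1.57 ± 0.11, although 1 of its 3 other probe sets was called higher in the second step. ELF3, an epithelial ETS factor, rose by 0.61 ± 0.10 and fell by 1.37 ± 0.10, and 1 of its 2 other probe sets was called with it at each step. C15orf39 changed by 0.64 ± 0.10 and then by -1.38 ± 0.10, and its 2 other probe sets were not called.

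Of 36 genes of TFIIH and the transcription kinases, 2 turned down (5.56%), beside 0.957% of all genes. HEXIM1, which holds the elongation kinase P-TEFb inactive with 7SK RNA, read 1217 and 1124 with DMSO, 1403 and 1615 at 50 nM, and 444 and 528 at 250 nM. Both 50 nM arrays were above DMSO and both 250 nM arrays far below it. The rise was 1.29-fold (adjusted p = 0.0387) and the fall 3.11-fold (adjusted p = 1.2e-08). All 4 of its other probe sets were called higher and then lower. BRD2, a BET bromodomain reader of acetylated histones, read 834 and 834 with DMSO, 1445 and 1384 at 50 nM, and 917 and 852 at 250 nM. It rose 1.7-fold (adjusted p = 1.14e-06) and then fell 1.6-fold (adjusted p = 2.7e-07), with no call between 250 nM and DMSO (0.08, adjusted p = 0.275); its other probe set was called at both steps too. PWWP2A, a reader of H2A.Z nucleosomes, read 582 and 524 with DMSO, 965 and 1017 at 50 nM, and 583 and 499 at 250 nM; it too peaked at 50 nM, and its 250 nM arrays spanned those with DMSO, but its 1 other probe set was called lower at 50 nM.

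RGS2, a regulator of G protein signalling, read 47.4 and 52.8 with DMSO, 91.4 and 84.1 at 50 nM, and 45.6 and 54.6 at 250 nM, with both 50 nM arrays above all others. It rose by 0.81 ± 0.13 and fell by 0.81 ± 0.13, and HBEGF, a ligand of the EGF receptor, rose by 0.80 ± 0.12 and fell by 0.63 ± 0.12. EGFR itself rose by 0.36 ± 0.07 and fell by 0.57 ± 0.07, but 1 of its 5 other probe sets was called the other way at 50 nM. SUFU, a negative regulator of Hedgehog signalling, rose by 0.73 ± 0.13 and fell by 1.23 ± 0.13, with 1 of 3 other probe sets opposite at 50 nM. TBX3, a T-box factor of mammary development, rose by 0.85 ± 0.21 and fell by 1.35 ± 0.21. SERTAD1, BRD2, C15orf39, ELF3, HBEGF, NFKBIZ, RBM15 and RGS2 stayed turned under all 16 alternatives in which they could be followed. EGR1, SUFU and PWWP2A did under 15, TBX3 and EGFR under 12, HEXIM1 under 10 and NFATC1 under only 7.

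**Figure D3:**
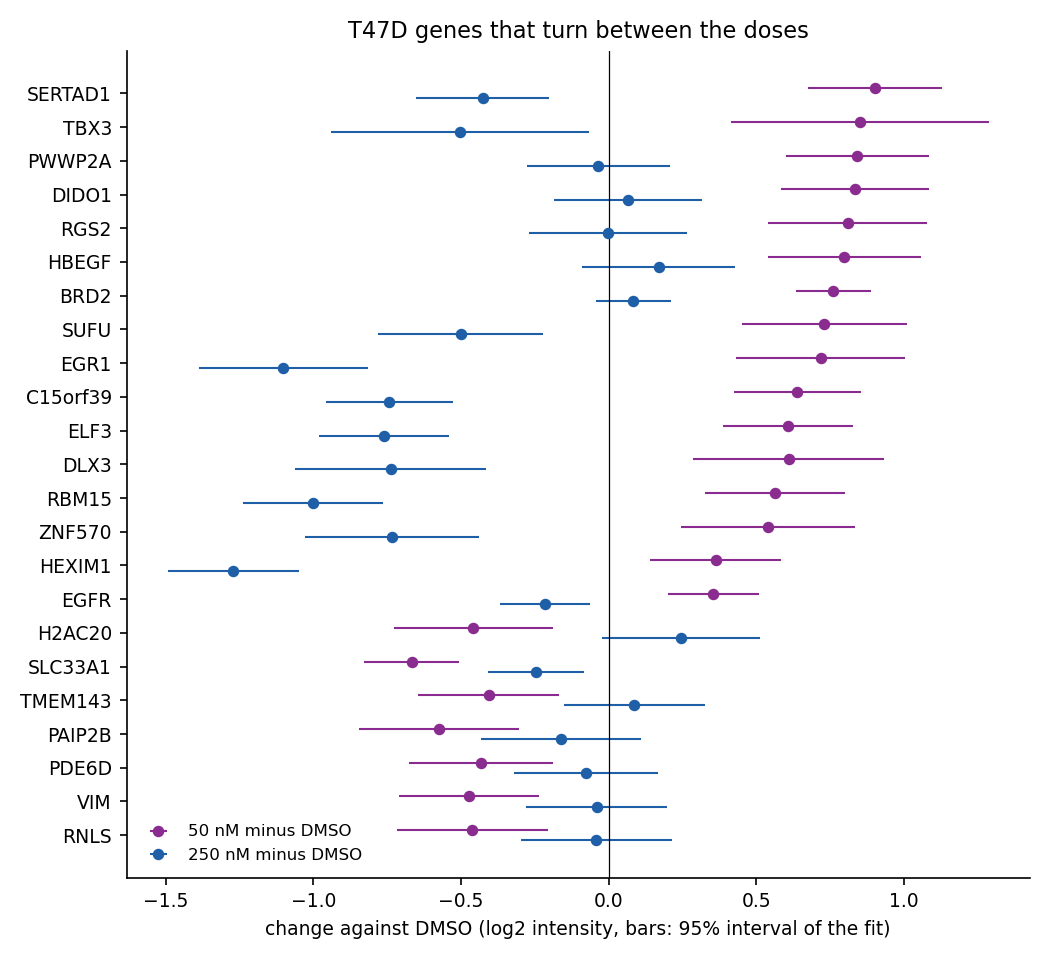
Log2 change against DMSO at 50 nM (purple) and 250 nM (blue) for named genes that changed direction in T47D, with bars for the 95% interval of the fit. The genes that turned down sit above 0 at 50 nM and lower, near or below 0, at 250 nM, with SERTAD1 at 0.90 and then -0.43.

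The genes that turned up moved less. The median of the 30 was -0.39 at the first step and 0.30 at the second. SLC33A1, an acetyl-CoA transporter of the endoplasmic reticulum, read 192 and 196 with DMSO, 125 and 119 at 50 nM, and 164 and 163 at 250 nM. It fell by 0.67 ± 0.08 and regained 0.42 ± 0.08 (adjusted p = 0.000371), ending under DMSO, but none of its 3 other probe sets was called in the second step. VIM (vimentin), an intermediate filament protein of mesenchymal cells, read 43.2 and 43.05 with DMSO, 29.9 and 32.3 at 50 nM, and 45.1 and 39.05 at 250 nM and was dim throughout. H2AC20, a replication-dependent histone gene, fell by 0.46 ± 0.13 and rose by 0.70 ± 0.13. The 1 other probe set of VIM and of H2AC20 was not called at either step. Of 16 alternatives, SLC33A1 stayed turned under 15, H2AC20 under 9 and VIM under 8. Scaled to the poly(A) control transcripts, 5 genes turned up (2 of them among the 30), and after quantile normalization 86 (23 among the 30).

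All but 1 of the 579 genes called higher in the second step changed by under 2-fold. The exception was RPS2P32, a ribosomal protein pseudogene whose transcript cannot be told from its parent family, at 90.8 and 86.7 with DMSO, 53.6 and 111 at 50 nM, and 139 and 184 at 250 nM; its 50 nM arrays were themselves far apart. PTPN14, a phosphatase that restrains YAP, read 40.1 and 42.8 with DMSO, 56.5 and 58.3 at 50 nM, and 94.8 and 104 at 250 nM; the second step was 0.79 ± 0.15 (adjusted p = 0.000521). TRAPPC10, of a vesicle tethering complex, rose by 0.60 ± 0.10 (adjusted p = 0.000222), with all of its 250 nM values above its 50 nM values. Neither was higher in ZR-75-1 (log2 0.02 and -0.11), and the difference between T47D and ZR-75-1 passed the test for both (adjusted p = 0.0133 and 0.00198).

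Gene lists were then described in the second step, with their members counted beside 27.2% lower and 4.58% higher of all genes. Signalling lists were among those with the most negative medians. Of 20 MAPK feedback genes 14 were lower and 0 higher (median -0.57), and of 35 immediate early genes 22 were lower and 0 higher (-0.64). At the first step each of the 2 lists had 2 lower and 2 higher. Of 27 insulin receptor and PI3K genes 15 were lower (-0.39), among them PIK3R1, the regulatory subunit of PI3K, at -1.70 ± 0.15. Zinc finger genes with ZNF names were the broadest group, with 263 of 381 lower and 1 higher (-0.69); 60 of them (15.7%) needed 250 nM, beside 3.28% of all genes. Their summed intensity was 66010 to 67660 at 50 nM and 43400 to 45880 at 250 nM, after 74160 to 74720 with DMSO. The medians of these 4 lists were negative under all 3 other scalings, but after quantile normalization the calls were 13 lower and 1 higher for MAPK feedback genes, 21 and 4 for immediate early genes, 8 and 5 for insulin receptor and PI3K genes, and 224 and 21 for zinc finger genes.

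Components of the transcription apparatus followed. Of 27 Mediator subunits 16 were lower (median -0.37), led by MED7 at -1.95 ± 0.16 and MED17 at -1.46 ± 0.07. Of 36 genes of TFIIH and the transcription kinases 17 were lower (-0.28), of 29 TFIID and initiation factors 13 were lower and 1 higher (-0.33), with GTF2E1, of TFIIE, at -1.86 ± 0.12, though its 1 other probe set was not called in this step and had been called the opposite way at 50 nM. Of 41 Integrator, cleavage and termination genes 22 were lower and 3 higher (-0.38). Of 12 core subunits of RNA polymerase II 2 were lower and 0 higher, with a median of 0.01, which was -0.36 when scaled to the poly(A) control transcripts. Of 47 mRNA decay and poly(A) genes 31 were lower and 0 higher (-0.40). For the other transcription and RNA lists the sign of the median was the same under all 4 scalings, but the calls were more mixed after quantile normalization. They were 12 lower and 3 higher for Mediator, 12 and 7 for TFIIH and the transcription kinases, and 10 and 5 for TFIID and initiation factors. Integrator, cleavage and termination genes had 17 and 9, and mRNA decay and poly(A) genes 21 and 3.

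Of 40 mitotic and G2/M genes 21 were lower and 0 higher (median -0.27), with WEE1, the inhibitory kinase of CDK1, at -1.12 ± 0.10 and AURKA (Aurora A) at -0.69 ± 0.06. Of 49 replication and G1/S genes 22 were lower and 1 higher (-0.22), with CCNE1 (cyclin E1) at -1.46 ± 0.11, although its 1 other probe set was not called. Of 25 p53 regulators and targets 16 were lower and 0 higher (-0.44), including MDM2 at -0.86 ± 0.08 and PPM1D at -1.04 ± 0.11, both negative regulators of p53. After quantile normalization the calls were 15 lower and 3 higher for the mitotic list, 18 and 8 for the replication list and 12 and 2 for the p53 list. Pro-apoptotic genes had 5 of 19 lower and 1 higher (-0.10, and 0.00 after quantile normalization). BCL2L11 (BIM) was called lower by its brightest probe set (-0.98 ± 0.11), but 4 of its 8 other probe sets were called higher, and the mean of its probe sets gave 0.17.

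Some lists had more genes higher than lower on the deposited scale. Of 80 oxidative phosphorylation genes 27 were higher and 1 lower (median 0.12), and of 67 cytosolic ribosomal protein genes 14 were higher and 0 lower (0.12). Scaled to the poly(A) control transcripts both turned, to 57 of 80 and 53 of 67 lower with 0 higher in each (-0.24 in each). After quantile normalization 22 of 80 and 2 of 67 were higher, with medians of 0.08 and 0.03. COX6C, a subunit of cytochrome c oxidase, read 4982 and 4998 with DMSO, 5256 and 4879 at 50 nM, and 6590 and 7113 at 250 nM, a rise of 0.44 ± 0.07. Of 16 housekeeping genes 0 were lower and 1 higher (0.09, and -0.27 by the poly(A) controls). Replication-dependent histone genes had 5 of 30 higher and 1 lower (0.09, and -0.27 by the poly(A) controls).

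**Figure D4:**
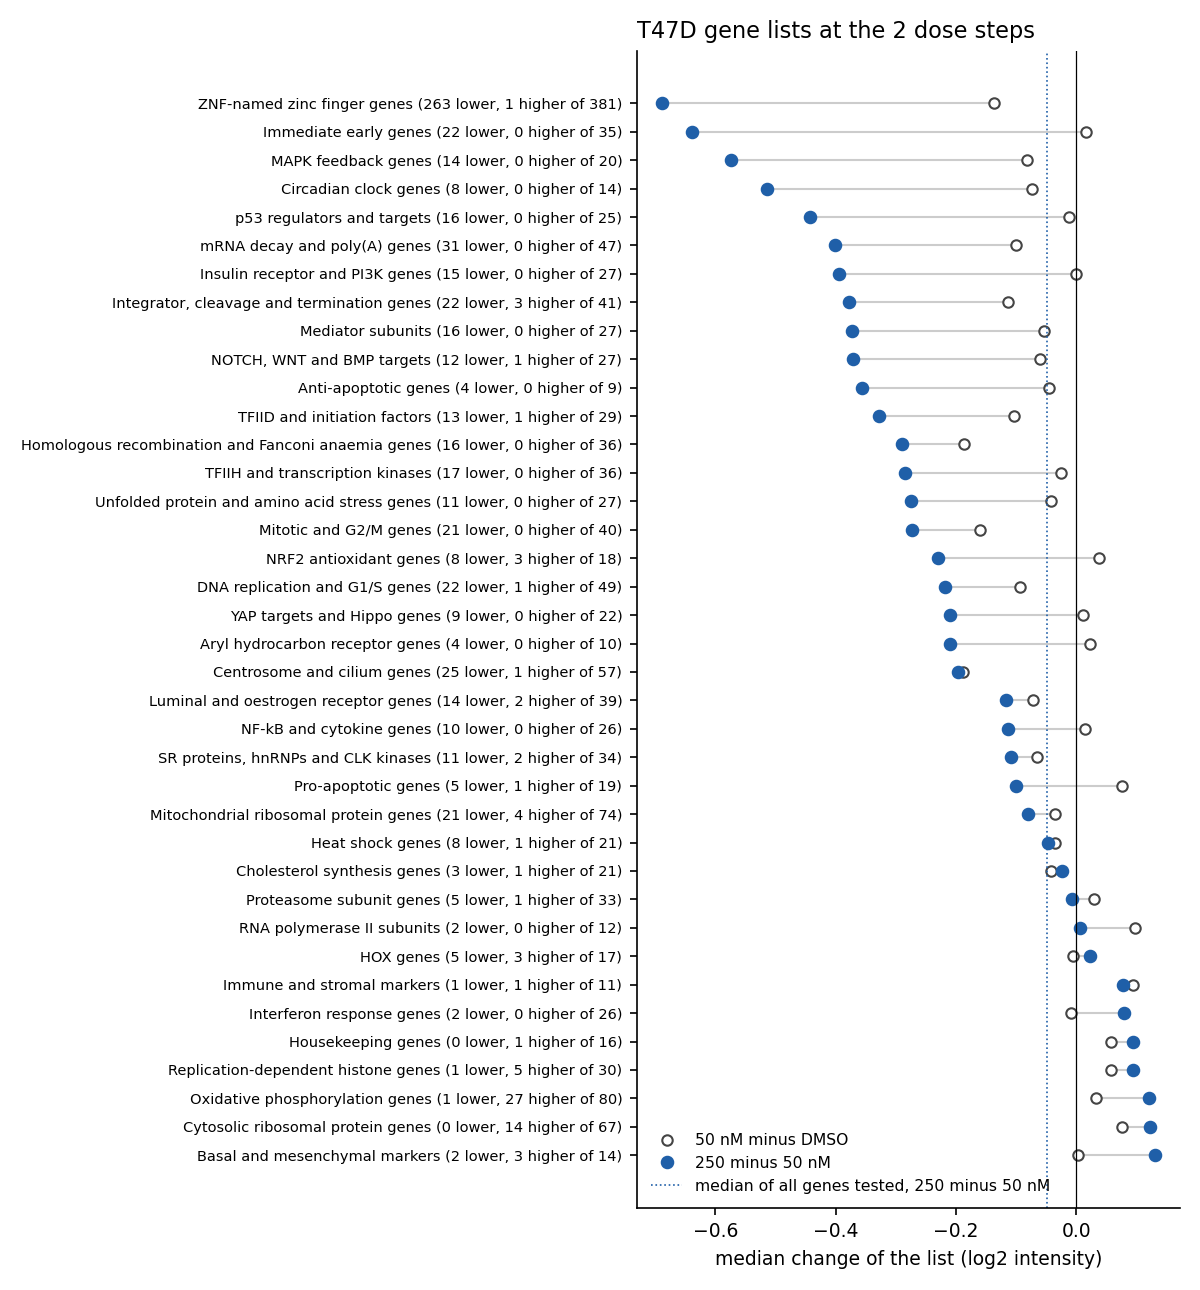
Median log2 change of each gene list in T47D from DMSO to 50 nM (open circles) and from 50 to 250 nM (filled circles), with the number of tested members called lower and higher in the second step; the dotted line is the median of all genes in that step, -0.05. Zinc finger genes (-0.69) and immediate early genes (-0.64) lie farthest to the left in the second step, while oxidative phosphorylation and cytosolic ribosomal protein genes lie at 0.12.

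The classes were then followed in the other lines. Their changes did not enter the class rules, but their arrays share the fit's variances, the filter and the choice of probe set; from the 6 T47D arrays alone 448 genes needed 250 nM, 405 of them among the 415, and 110 turned down, 93 of them among the 121. Of the 415 genes that needed 250 nM in T47D, 406 (97.8%) were called lower between the same doses in ZR-75-1, where 41.7% of all genes were, and 384 (92.5%) in MDA-MB-468, where 23.2% were. Of the 415, 379 were called lower in both lines and 4 in neither. High shares were not particular to the class: of all 748 genes at least 2-fold lower between the doses in T47D, 96.1% were called lower in ZR-75-1. In MDA-MB-468 86.1% of the 748 were. The median change was -1.25 in T47D, -1.83 in ZR-75-1 and -1.33 in MDA-MB-468. In BT-549, with 1 array a dose and no test, the median was -0.80, 376 of the 415 were below 0 and 161 were at least 2-fold lower. In MDA-MB-468, 195 of the 415 (47%) were already called lower at 50 nM, beside 14.6% of all genes. In ZR-75-1 36 (8.67%) were, beside 5.68%. Of the 748 genes, 54.4% were already called lower at 50 nM in MDA-MB-468 and 15.8% in ZR-75-1. The difference between lines at 50 nM was not tested.

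Of the 75 genes lost at 50 nM in T47D, 50 were called lower at that dose in ZR-75-1, beside 5.68% of all genes. In MDA-MB-468 68 were, beside 14.6%. The 11 held genes were not called lower in the second step in MDA-MB-468, where 23.2% of all genes were. Of the 11, 3 were higher there, beside 5.73% of all genes, among them MMS22L at 0.69 and KRCC1 at 0.32. In ZR-75-1 8 of them were called lower in that step, beside 41.7% of all genes. Of the 121 genes that turned down, 38 were called higher at 50 nM in ZR-75-1, beside 2.79% of all genes, and 41 in MDA-MB-468, beside 4.42%. Between the doses 113 of the 121 fell in ZR-75-1 and 99 in MDA-MB-468, beside 41.7% and 23.2% of all genes. Beside the same shares, all 42 crossed genes fell between the doses in ZR-75-1 and 41 did in MDA-MB-468. Of the 30 that turned up, 17 were called higher between the doses in MDA-MB-468, beside 5.73% of all genes, and 1 lower. In ZR-75-1 4 were higher, beside 6.63% of all genes, and 8 lower.

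**Figure D5:**
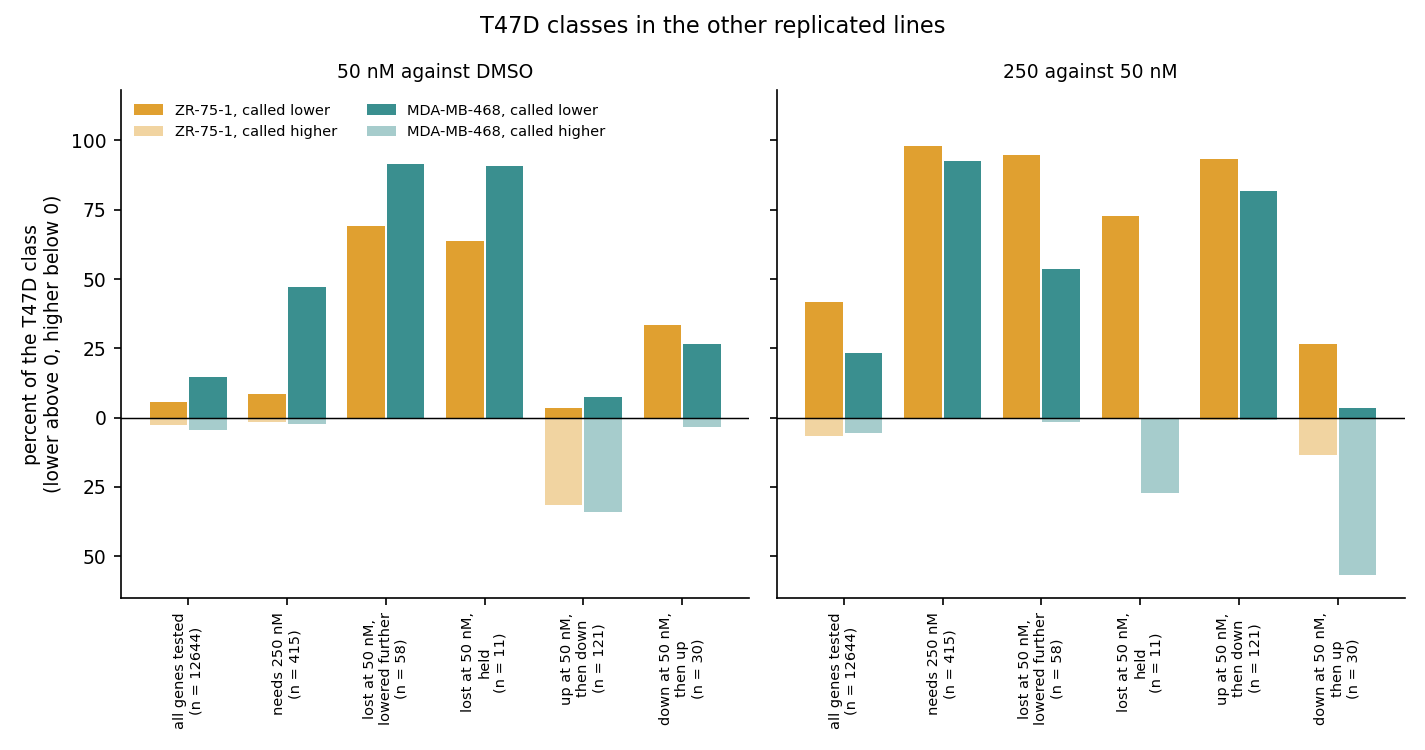
Percent of each T47D class called lower (above 0) or higher (below 0, counted downwards) in ZR-75-1 and MDA-MB-468, for 50 nM against DMSO on the left and 250 against 50 nM on the right, beside all 12644 genes. Nearly all genes that needed 250 nM in T47D were lower at the second step in both lines, and the share already lower at 50 nM was 47% in MDA-MB-468 and 8.67% in ZR-75-1.

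Across all genes the second step of T47D correlated at 0.80 with that of ZR-75-1 and 0.71 with that of MDA-MB-468 (Pearson's r over 12644 genes, which are not independent replicates and share the array design). The difference between lines was tested gene by gene in the same fit. Against ZR-75-1, 177 genes had a more negative change in T47D (1.4%) and 2733 a more positive one (21.6%); 1601 of the 2733 were called lower in T47D all the same. The share of these differences that were more positive in T47D was 93.9% as deposited, 82.3% with arrays centred, 62.9% after quantile normalization and 99.7% by the poly(A) controls. Without array 1 at 50 nM, 103 genes were more negative. Against MDA-MB-468, 689 genes were more negative in T47D (5.45%) and 619 more positive (4.9%). Without array 1 at 250 nM, 454 were more negative. PHLDA1 was lowered more in T47D than in both lines, by -1.38 against ZR-75-1 (adjusted p = 1.54e-05) and -1.01 against MDA-MB-468 (adjusted p = 0.000655). The change of MYC was -2.13 in ZR-75-1, a difference that was not called (adjusted p = 0.789), and MYC fell less in T47D than in MDA-MB-468, where its change was -3.51 (adjusted p of the difference 2.31e-06). FOXA1, GATA3 and MCL1 fell less in T47D than in both, with changes of -2.20, -1.56 and -2.01 in ZR-75-1 and -2.52, -1.43 and -1.93 in MDA-MB-468. CCND1, at -0.41 ± 0.06 in T47D, changed by -1.46 in ZR-75-1 (adjusted p of the difference 4.37e-07).

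Promoter sequence was compared between the classes as a description. RefSeq promoters were matched for 10319 of the 12644 tested genes, 346 of the 415 that needed 250 nM, 65 of the 75 lost at 50 nM, 98 of the 121 that turned down and 35 of the 42 that crossed. The ETS core CCGGAA was found in 28.4% of all promoters, 31.5% of those needing 250 nM, 53.8% of those lost at 50 nM (35 of 65) and 27.6% of those that turned down. CCAAT was in 36.6% of all, 44.8% of those needing 250 nM and 36.9% of those lost at 50 nM. The GC box GGGCGG was in 69.2% of all, 77.6% of those that turned down and 82.9% of those that crossed. TATAAA was in 6.12% of all, 4.05% of those needing 250 nM and 11.4% of those that crossed (4 of 35). TGACGTCA (3.17% of all), GCGTG (50%) and TGACTCA (3.12%) were in 4.05%, 53.5% and 2.02% of those needing 250 nM. A match is not a bound site, and the classes differ in other ways that were not matched.

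At the borders of the classes the genes differed little. SEMA6A (-1.0004) was just inside and ZNF436 (-0.9987) just outside the 2-fold limit for genes needing 250 nM, and at the limit on the 50 nM interval TAF5 was inside (far end at 0.58) and HEXIM1 outside (0.59). For loss at 50 nM, TIGD5 (-1.0041) was inside and PGBD4 (-0.9986) outside.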

How the data were processed

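Total RNA of 4 cell lines was measured on Affymetrix PrimeView arrays. Per the labels' protocols, ERCC spike-in RNA was dosed by cell number, and 100 ng of RNA was amplified from oligo(dT). The deposited values are linear intensities made by the authors with MAS5, per the submitters' processing notes; the scaling target and any use of the spike-in are not given in the sources used here, and no probe set is named for ERCC. MAS5 scales arrays to a common mean, so a loss shared by all transcripts may not show.

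Values were set to at least 1 and taken as log2 with no rescaling. Of 49395 probe sets, 44994 name 1 gene, 1832 several and 2569 have no entry; 44967 symbols were updated by Entrez ID. A gene was read from its brightest probe set on average, and kept if its highest group mean reached the median, log2 5.84 (intensity 57.4). A gene was above background where it exceeded the mean of 23 background probe sets. The 18 arrays of the 3 replicated lines were fitted as 9 group means with limma 3.58.1 in R 4.3.3 (moderated with a mean-variance trend; residual df 9, prior df 6.18), with Benjamini-Hochberg adjustment over 12644 genes. Folds against a group not above background are lower bounds. Errors of log2 changes are standard errors with 2 arrays a group, and the number of arrays limits precision. The steps were checked on simulated data.

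Named genes are the largest changes of each comparison and class, a fixed list of drug targets and luminal genes, and up to 4 members a list by moderated statistic; HEXIM1, BRD2, H2AC20, TRAPPC10, PTPN14, HBEGF, RGS2, EGFR, and the genes at class borders were named after their values were seen. Members and lists were chosen with earlier results of these data known. Replicate numbers did not pair arrays (correlations of deviations 0.02, 0.04 and 0.14). Alternatives were other scalings, floors, filters, probe set rules, margins, fits and each T47D array left out.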

Additional observations from a re-analysis of the deposited data

Results flagged for a closer look

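The change from 50 to 250 nM was set against the same change in the other replicated lines by an interaction contrast in the same fit (limma with Benjamini-Hochberg adjustment), and the genes with the largest called differences in each direction were taken. More negative in T47D than in ZR-75-1 were FAM200A (log2 difference -1.98), ZFP37 (-1.62), KCNJ2 (-1.52), CCDC85A (-1.50), YOD1 (-1.43), EXPH5 (-1.40), PHLDA1 (-1.38) and GJC1 (-1.35). More positive were IL20 (2.65), DKK1 (2.63), BCL11B (2.59), EGR3 (2.44), LRATD1 (2.38), PPP1R3C (2.37), BHLHE41 (2.36) and ST8SIA4 (2.36).

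More negative in T47D than in MDA-MB-468 were TBX3 (-2.04), SMG8 (-1.92), HEY2 (-1.89), ZC3H12C (-1.79), PPARGC1A (-1.65), FCN2 (-1.61), CPEB4 (-1.58) and ZCCHC14 (-1.55). SMG8, a regulator of the nonsense-mediated decay kinase SMG1, read 617 and 558 with DMSO, 449 and 452 at 50 nM, and 115 and 137 at 250 nM in T47D, and its change between the doses was 0.08 in MDA-MB-468. ZCCHC14 read 708 and 713 with DMSO, 562 and 561 at 50 nM, and 148 and 171 at 250 nM, against -0.28 in MDA-MB-468, and the NOTCH target HEY2 read 391 and 385 with DMSO, 329 and 287 at 50 nM, and 94.7 and 111 at 250 nM, against 0.31. These differences cover only the second step. At 50 nM against DMSO 1844 genes were called lower in MDA-MB-468 and 956 in T47D. The first step of SMG8, ZCCHC14 and HEY2 in MDA-MB-468 is not given here. More positive in T47D were FOXQ1 (3.26), ADAMTS1 (2.73), PPP1R3C (2.38), CCN2 (2.32), ZFP42 (2.23), DKK1 (2.20), SGK1 (2.16) and TENT5C (2.11). BCL11B, BHLHE41, IL20, CCN2, LRATD1, FOXQ1, PPP1R3C, ST8SIA4 and ZFP42 lay at or near background in T47D, where a fall could not be measured. The other line was not above background with DMSO or at 50 nM for 29 of the 177 genes that were more negative than in ZR-75-1 and for 26 of the 689 that were more negative than in MDA-MB-468.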

How the results depend on the processing

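With 2 arrays a dose and intensities near background for many genes, small changes and falls to background are measured poorly, and the deposited scaling cannot show a loss shared by all transcripts. Settings that moved a count by over 1.5 times are given here. Scaled to the poly(A) control transcripts, 8508 genes were lower and 8 higher between the doses, 1675 at least 2-fold lower; 192 were lost at 50 nM and 169 of these fell further, 62 turned down, 5 turned up and 27 crossed. Against ZR-75-1 9546 were then more positive in T47D and 28 more negative, and 437 were more negative than in MDA-MB-468. After quantile normalization 2809 were higher, 485 at least 2-fold lower, 267 needed 250 nM, 46 were lost at 50 nM (35 further, 5 held) and 86 turned up, with 1441 more positive and 849 more negative than in ZR-75-1. With arrays centred, 1047 were higher, 80 turned down and 23 crossed, with 1467 more positive and 315 more negative than in ZR-75-1. With the mean of a gene's probe sets, 415 were at least 2-fold lower, 261 needed 250 nM and 37 were lost at 50 nM (29 further, 4 held). A floor of 32 gave 47 turned up, a filter at log2 7 gave 7 held, and the narrower margin gave 109 needing 250 nM and 0 held.

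Leaving out each T47D array in turn gave 2752 to 3352 lower, 216 to 503 higher, 687 to 796 at least 2-fold lower, 317 to 446 needing 250 nM, 61 to 86 lost at 50 nM (41 to 57 further, 6 to 12 held), 55 to 102 turned down, 14 to 33 turned up and 11 to 37 crossed. Against ZR-75-1 2049 to 2598 were more positive and 103 to 154 more negative, and against MDA-MB-468 441 to 575 and 454 to 617. Replicate numbers were not shown to pair the arrays; with the replicate number as a block, 748 genes were at least 2-fold lower, 663 higher, 428 needed 250 nM, 75 were lost at 50 nM, 122 turned down, 44 turned up and 41 crossed. Of single genes, SLC35B3 reversed to -0.17 by the poly(A) controls and BCL2L11 to 0.17 with the mean of its probe sets.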

Other observations

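Further gene groups were described between 50 and 250 nM in T47D, beside 27.2% lower and 4.58% higher of all genes. Of 14 circadian clock genes 8 fell and 0 rose by limma at the same threshold (median -0.52 beside -0.05 for all genes). PER2, a repressor of the clock, read 288 and 299 with DMSO, 163 and 174 at 50 nM, and 90.2 and 85.9 at 250 nM, lower at each step, although its 1 other probe set was not called. BHLHE40, a clock repressor, fell by 1.04 ± 0.11 after little change at 50 nM (-0.07). Of 22 YAP targets and Hippo genes 9 were lower and 0 higher (-0.21), and 5 (22.7%) needed 250 nM, beside 3.28% of all genes. AMOTL2, an angiomotin that holds YAP in the cytoplasm, read 258 and 247 with DMSO, 222 and 226 at 50 nM, and 63.2 and 52.5 at 250 nM, and LATS2, the kinase that inactivates YAP, fell by 1.77 ± 0.12. CCN1, a secreted YAP target, fell by 1.58 ± 0.09. Of 27 NOTCH, WNT and BMP targets 12 were lower and 1 higher (-0.37); BAMBI, a decoy receptor of TGF-beta signalling, read 808 and 839 with DMSO, 803 and 823 at 50 nM, and 329.6 and 364 at 250 nM, level through 50 nM and lower at 250 nM.

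Of 36 homologous recombination and Fanconi anaemia genes 11 were lower and 0 higher at 50 nM, beside 7.56% lower of all genes. Between the doses 16 were lower and 0 higher (median -0.29), beside 27.2% lower of all genes. PALB2, which links BRCA1 and BRCA2, read 367 and 359.7 with DMSO, 266 and 268 at 50 nM, and 73.5 and 88.7 at 250 nM; the first step, -0.44 ± 0.14, was not called (adjusted p = 0.0694), and the second was -1.73 ± 0.14 (adjusted p = 1.73e-07). Against MDA-MB-468, 9 of these 36 genes had a more negative second step in T47D and 0 a more positive one, beside 5.45% and 4.9% of all genes. This comparison covers only the second step. At 50 nM 1844 of all genes were already called lower in MDA-MB-468 and 956 in T47D, and the first step of the 36 in MDA-MB-468 is not given here. Among 26 NF-kB and cytokine genes 10 were lower (38.5%, beside 27.2% of all) and 0 higher (-0.11), with NFKBIA, the inhibitor of NF-kB, at -1.40 ± 0.09. Of 26 interferon response genes 2 were lower (7.69%, under the share of all genes) and 0 higher (0.08, and -0.28 by the poly(A) controls). Among 18 NRF2 antioxidant genes, whose list median changed sign under quantile normalization (-0.23 and 0.04), NFE2L2, which encodes NRF2, changed by -0.49 ± 0.07 at 50 nM and by -0.74 ± 0.07 at 250 nM.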
